A study of Mus musculus with 32 samples.

Results

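A set of 9 cadherin genes was followed in RNA from dissected mouse brain arteries, chosen by symbol because Cdh13 was higher in both Notch3 mutants and Cdh6 lower in the knockout, with the better-known family members beside them. These 9 genes, Cdh1, Cdh2, Cdh3, Cdh4, Cdh5, Cdh6, Cdh10, Cdh11 and Cdh13, are 9 of the 55357 genes counted, and each matched 1 Ensembl identifier. All 9 passed the filter on low counts in every comparison.

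Arteries came from 32 mice in 4 groups of 8. Notch3-/- mice, which lack the Notch3 receptor of arterial smooth muscle, were compared at 3 months of age with Notch3+/+ mice. TgNotch3R169C mice, a model of the inherited small vessel disease CADASIL, were compared at 12 months with non-Tg mice. The transgene is a P1-derived artificial chromosome on the X chromosome that overexpresses rat Notch3 with the Arg169Cys mutation, and these mice also keep their own normal Notch3. All groups were untreated and on a C57BL/6 background, and the study used animals of both sexes. Age and mouse line differed together between the control groups, so an effect of age and an effect of line cannot be told apart there. The study asked whether loss, gain or a new kind of NOTCH3 activity accompanies the arterial disease. Libraries held between 20289487 and 54481934 counted reads.

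Cadherins are calcium-dependent adhesion molecules that join like cells to each other. Classical cadherins bind catenins inside the cell, and the catenins tie the junction to actin. Cdh5 (VE-cadherin) holds endothelial cells together, Cdh2 (N-cadherin) joins endothelial and mural cells as well as neurons, and Cdh13 (T-cadherin) lacks the intracellular tail, is held in the membrane by a lipid anchor and binds adiponectin.

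The labels were checked on Notch3 itself. Notch3 ran from 13.7 to 18.5 CPM (read counts scaled to a common library total, with TMM normalisation) in Notch3-/- mice against 65.8 to 98.1 CPM in Notch3+/+ mice, and from 108 to 219 CPM in TgNotch3R169C mice against 60.1 to 85.02 CPM in non-Tg mice. Neither pair of ranges overlapped. The reads counted for the mouse gene in the transgenic group may include reads of the rat transgene, and the 2 cannot be told apart in these counts. Xist split every group into 4 mice at or below 2.40 CPM and 4 at or above 1440 CPM, so the Xist classes were equally represented. In all, 7 libraries carried summed choroid plexus marker levels of at least 13324 CPM (10 genes, Ttr and Folr1 among them) and the other 25 libraries were at or below 1061 CPM. These choroid plexus-rich libraries were 4 of the non-Tg, 2 of the TgNotch3R169C and 1 of the Notch3-/- libraries, and none of the Notch3+/+ libraries. Pituitary markers were at most 782 CPM in every library but Notch3+/+ replicate 5, at 8928 CPM.

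The arteries' own markers were present in all groups. Smooth muscle markers (9 genes, Acta2 and Myh11 among them) summed to 2787 to 4900 CPM in Notch3+/+ libraries, 1909 to 2931 CPM in Notch3-/- libraries, 1565 to 2392 CPM in non-Tg libraries and 1311 to 2009 CPM in TgNotch3R169C libraries. Of these, 7 of the 9 were called lower in Notch3-/- arteries, where 0.452% of all genes tested were called lower. All 9 were called lower in non-Tg against Notch3+/+ arteries, where 4.05% of all genes tested were. None was called in TgNotch3R169C arteries, where 0.113% of all genes tested were called in either direction. All 9 estimates were nevertheless below 0 there (median log2 -0.22, 4 with an unadjusted p under 0.05). In whole-artery RNA, fewer cells of a type and less RNA per cell cannot be told apart.

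Cdh6 and Cdh10 are type II classical cadherins known mainly from the developing nervous system, and Cdh6 also from the kidney. Both genes lie on chromosome 15 and their levels varied together from mouse to mouse, as described with the correlations. The sequences before their transcription starts are shown because only these 2 of the 9 members had one in the RefSeq promoter table used (build GRCm38.p6). Each line reads 5′ to 3′ on the gene's own strand. Capitals mark an E-box (CANNTG, which reads the same on both strands, the motif bound by the Snail, Zeb and Twist repressors and by many other factors) or the core motif of the Notch partner RBPJ (TGGGAA, either strand).
Cdh6, chr15:13173676-13173925, minus strand, 250 bases before the start: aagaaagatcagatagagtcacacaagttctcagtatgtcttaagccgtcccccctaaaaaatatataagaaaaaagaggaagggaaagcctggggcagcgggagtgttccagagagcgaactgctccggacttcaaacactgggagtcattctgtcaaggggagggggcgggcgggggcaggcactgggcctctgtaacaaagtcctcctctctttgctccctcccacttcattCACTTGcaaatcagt
Cdh6, chr15:13173626-13173655, minus strand, bases 21 to 50 after the start: tctctggagccgtaaccTTCCCAtcccgag
Cdh10, chr15:18820079-18820328, plus strand, 250 bases before the start: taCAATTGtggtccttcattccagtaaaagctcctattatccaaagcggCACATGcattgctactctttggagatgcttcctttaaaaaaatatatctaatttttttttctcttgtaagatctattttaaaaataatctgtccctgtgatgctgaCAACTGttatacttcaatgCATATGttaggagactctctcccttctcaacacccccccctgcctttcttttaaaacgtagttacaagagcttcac
Cdh6 had 1 E-box and Cdh10 had 4 in the 250 bases before the start, where 66.2% of the 32851 windows in the table held at least 1. The RBPJ core was in neither 250-base window, where 21.6% of windows held it. It occurred 1 time, on the opposite strand, within bases 21 to 50 after the Cdh6 start, and 4.59% of the windows of 50 bases after the start held it. For comparison, 18.5% of those 50-base windows held an E-box. No marked motif overlapped another. These matches are letters in a reference sequence and were not tested as binding sites.

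Levels of the 9 genes per length covered a wide range, and Cdh5 and Cdh1 stood at the top. In Notch3+/+ arteries the mean level per kb of exon was 76.6 ± 6.0 CPM per kb (SD, n = 8) for Cdh5 and 63.5 ± 11.7 for Cdh1 (E-cadherin), the epithelial cadherin that is also found in the arachnoid barrier layer. Their ranges overlapped, at 66.4 to 84.3 and 49.0 to 82.2 CPM per kb. Cdh11 (OB-cadherin), a cadherin of fibroblasts and other mesenchymal cells, followed at 13.6 ± 2.6 CPM per kb, and Cdh13 at 4.31 ± 0.45 CPM per kb. The range of Cdh11, 11.3 to 17.8 CPM per kb, lay apart from those of Cdh1 above it and of Cdh13 below it, which ran from 3.32 to 4.91 CPM per kb.

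The 4 genes that came next could not be ordered by their ranges. Cdh2 averaged 2.37 ± 0.93 CPM per kb, Cdh6 2.08 ± 0.35, Cdh3 (P-cadherin) 1.72 ± 0.39 and Cdh4 (R-cadherin) 1.41 ± 0.37, and each range overlapped its neighbour's. The highest Cdh2 mouse, at 4.07 CPM per kb, also reached into the range of Cdh13. Cdh10 was lowest at 0.47 ± 0.22 CPM per kb. Its highest mouse, at 1.01 CPM per kb, reached into the range of Cdh4, which began at 0.92 CPM per kb. Cdh5 and Cdh1 led in the other 3 groups too, with mean levels per kb of 68.6 to 77.4 for Cdh5 and 57.3 to 64.1 for Cdh1.

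**Figure D1:**
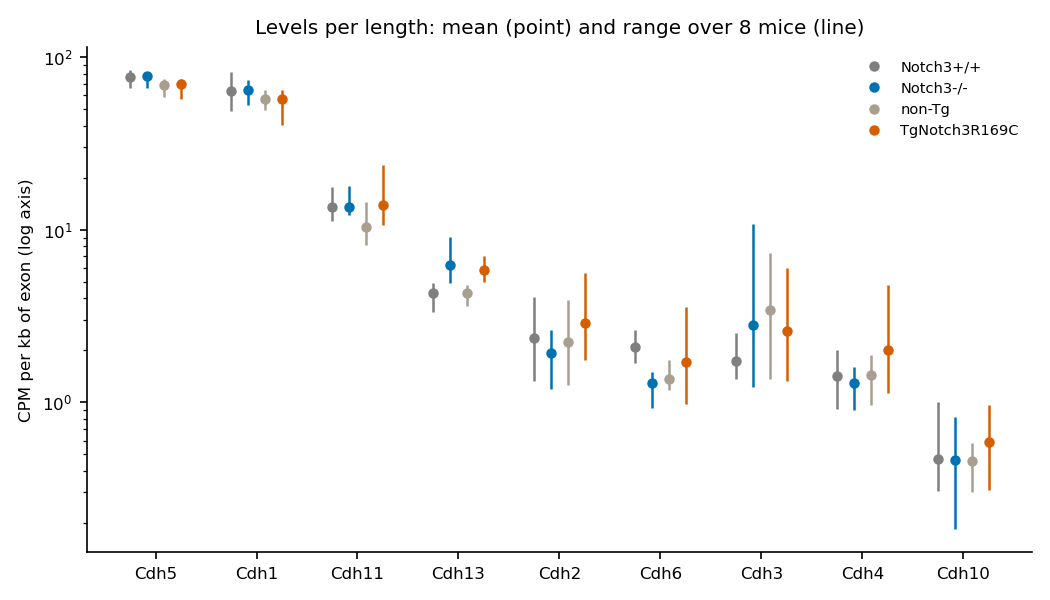
Level of each cadherin per kb of exon (CPM per kb, log axis) in the 4 groups, with genes ordered by the Notch3+/+ mean. Points are means and lines the range over 8 mice. Group means of Cdh5 and Cdh1 lie between 57.3 and 77.4 and Cdh10 is below 1 on average in every group.

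Cdh13 was the cadherin that was higher in both mutants. In Notch3+/+ arteries its level ran from 37.2 to 55.1 CPM with a median of 49.3 CPM, and in Notch3-/- arteries from 54.9 to 101.8 CPM with a median of 65.8 CPM. The ranges touched at 1 point, where the lowest Notch3-/- mouse, replicate 4, fell just under the highest Notch3+/+ mouse, replicate 2. Notch3-/- replicate 1 was the highest of all 32 mice for this gene.

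At 12 months the separation was complete. Cdh13 ran from 40.5 to 53.5 CPM with a median of 49.3 CPM in non-Tg arteries and from 55.9 to 79.6 CPM with a median of 62.5 CPM in TgNotch3R169C arteries. The edgeR estimate was 1.45-fold (95% interval 1.23 to 1.71, log2 0.53, SE 0.11) in Notch3-/- and 1.36-fold (1.21 to 1.53, log2 0.44, SE 0.08) in TgNotch3R169C mice. These contrasts chose the gene, so no p is given.

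The Cdh13 differences within each Xist class come from the same libraries that chose the gene, so they are a description and no independent support. Among mice with low Xist the difference of mean log2 CPM was 0.48 for Notch3-/- and 0.53 for TgNotch3R169C, and among mice with high Xist it was 0.55 and 0.34. Each of these 4 values rests on 4 mice against 4. For non-Tg against Notch3+/+ the estimate was log2 -0.02 (95% interval -0.16 to 0.13), given without a p because both control groups were the references in the contrasts that chose the gene. The change in TgNotch3R169C mice minus the change in Notch3-/- mice was -0.09 on the log2 scale (95% interval -0.37 to 0.20).

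Other cell content was measured beside the Cdh13 values. The smooth muscle list was lower in Notch3-/- arteries while Cdh13 was higher. With the mean of that list as a covariate the Cdh13 estimates were 0.71 (SE 0.18, then not called) in Notch3-/- and 0.56 (SE 0.08) in TgNotch3R169C mice. With the endothelium list (10 genes, Pecam1 and Cldn5 among them) as a covariate they were 0.43 (SE 0.10) and 0.38 (SE 0.08), and Cdh13 was then called in neither mutant. With the neuron list as a covariate the TgNotch3R169C estimate was 0.41 (SE 0.08) and was not called either. With the choroid plexus list as a covariate the estimates were 0.54 (SE 0.12) in Notch3-/- and 0.37 (SE 0.06) in TgNotch3R169C mice, both called. Without the choroid plexus-rich libraries they were 0.55 (SE 0.12) and 0.42 (SE 0.08), neither called. No gene of the endothelium list was called in either mutant. Of the 10, however, 8 had estimates above 0 in Notch3-/- and 9 in TgNotch3R169C arteries, with a median of log2 0.10 in each. With each mouse left out in turn, the log2 estimates were 0.45 to 0.58 in Notch3-/- and 0.40 to 0.48 in TgNotch3R169C mice. Cdh13 was called in 5 of 16 and in 4 of 16 such fits. All fits of this paragraph use the libraries that chose the gene. Their calls describe how near the threshold Cdh13 lay and are no independent support.

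Cdh6 was lower in the knockout, and it was also lower in the older control arteries. Its level ran from 15.2 to 23.7 CPM (median 18.5 CPM) in Notch3+/+ arteries and from 8.41 to 13.5 CPM (median 12.3 CPM) in Notch3-/- arteries, so every knockout mouse lay below every Notch3+/+ mouse. In non-Tg arteries it ran from 10.7 to 15.95 CPM (median 11.7 CPM), which overlapped the Notch3+/+ range by its highest mouse, replicate 8. In TgNotch3R169C arteries it ran from 8.82 to 32.1 CPM (median 13.1 CPM), a range that spanned the whole non-Tg range.

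In Notch3-/- mice the edgeR estimate for Cdh6 was 0.62-fold (95% interval 0.53 to 0.73, log2 -0.69, SE 0.11), given without a p because this contrast chose the gene. In the same libraries, which chose the gene, the differences of mean log2 CPM were -0.79 among mice with low Xist and -0.57 among mice with high Xist. In TgNotch3R169C mice the estimate was log2 0.32 (SE 0.20, 95% interval -0.11 to 0.74). That value rested largely on replicate 5, at 32.1 CPM with the next mouse at 16.99 CPM, and without replicate 5 it was 0.09. It was 0.002 without the choroid plexus-rich libraries, 0.07 with the neuron list as a covariate and -0.02 with the smooth muscle list as a covariate.

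The change of Cdh6 in TgNotch3R169C mice minus its change in Notch3-/- mice was 1.01 on the log2 scale (SE 0.24, 95% interval 0.52 to 1.499). Without TgNotch3R169C replicate 5 this difference was 0.77, and without the 7 choroid plexus-rich libraries, to which that replicate belongs, it was 0.66 (SE 0.21). Both settings were added after the data were seen.

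Between the control groups the estimate of Cdh6 was 0.66-fold (95% interval 0.56 to 0.77, log2 -0.61, SE 0.11) in non-Tg mice at 12 months against Notch3+/+ mice at 3 months. The Notch3+/+ libraries were also those against which the gene was chosen, so no p is given. It was the 1 member called of 9 in that comparison, where 7.92% of the 17643 genes tested were called, 3.87% higher and 4.05% lower, so 1 of 9 was close to the background. The ranges of no member lay apart there, as they did for 1.24% of genes tested, 0.391% higher and 0.845% lower. With each mouse left out in turn the estimates ran from -0.67 to -0.56. These fits share the Notch3+/+ libraries that chose the gene, so they are no independent support. Without the choroid plexus-rich libraries, 4 of the 8 non-Tg mice, the estimate was -0.49, and it was -0.46 with the choroid plexus list as a covariate, and in neither fit was Cdh6 called.

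Most smooth muscle markers were lower in both comparisons in which Cdh6 was lower (Des was at log2 0.28, not called, in Notch3-/- arteries), with a median of log2 -0.63 in Notch3-/- and -0.78 in non-Tg against Notch3+/+ arteries. In TgNotch3R169C arteries their median was -0.22 and the estimate of Cdh6 was 0.32, or 0.09 without replicate 5. With the smooth muscle list as a covariate the Cdh6 estimates were -0.55 (SE 0.19) for Notch3-/- against Notch3+/+ and -0.31 (SE 0.20) for the control groups. From mouse to mouse within groups, Cdh6 and the list had a Pearson r of -0.20 (Spearman rho -0.01, adjusted permutation p = 0.42 and 0.982). The r was 0.20 among the 3-month mice and -0.50 among the 12-month mice. Whether smooth muscle content accounts for the Cdh6 differences was not tested.

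**Figure D2:**
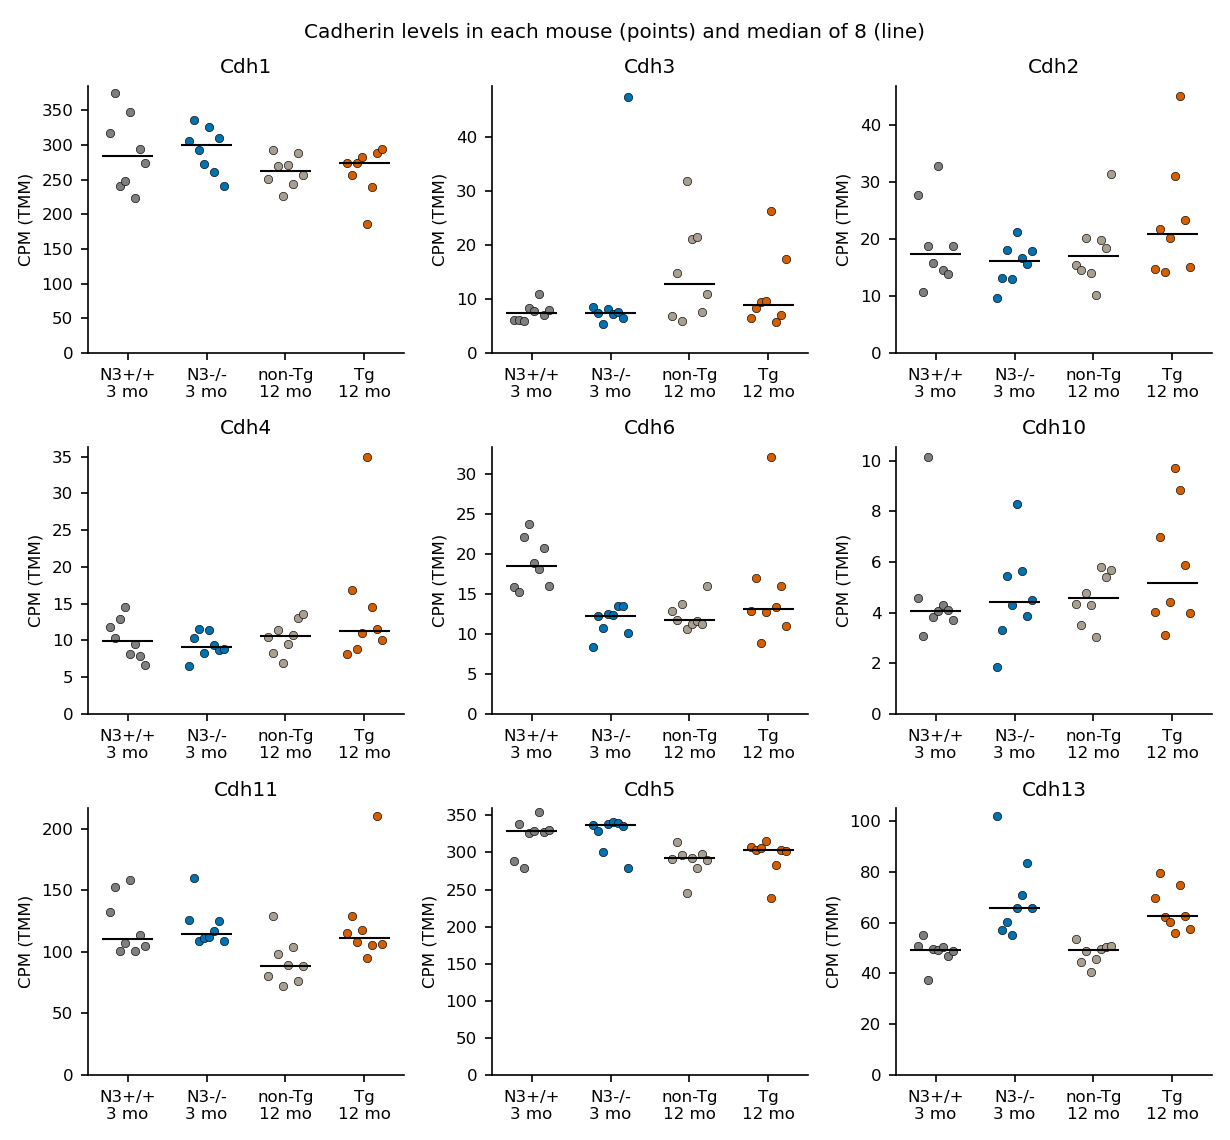
Level of the 9 cadherins (CPM, TMM-scaled, axis from 0) in each mouse by group. Points are single mice and lines the median of 8. Cdh13 is higher in both mutant groups, every Notch3-/- mouse is below every Notch3+/+ mouse for Cdh6, and 1 Notch3-/- mouse stands at 47.4 CPM for Cdh3.

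In Notch3-/- against Notch3+/+ arteries 2 of the 9 members were called, Cdh13 higher and Cdh6 lower, where 0.649% of the 17714 genes tested were called, 0.198% higher and 0.452% lower. That count was fixed by the choice of genes. Ranges lay apart for 1 member, Cdh6, where they did for 0.322% of genes tested, 0.0903% higher and 0.231% lower. Cdh5, the endothelial junction cadherin, ran from 279 to 354 CPM (median 329 CPM) in Notch3+/+ and from 279 to 341 CPM (median 336 CPM) in Notch3-/- arteries. Its log2 difference was 0.02 (95% interval -0.10 to 0.13, adjusted p = 0.984), an interval of 0.94- to 1.09-fold. Cdh11 was at log2 -0.00 (95% interval -0.23 to 0.23) and Cdh1 at 0.02 (95% interval -0.20 to 0.23).

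The nervous system cadherins of the knockout arteries were less precisely measured. Cdh4 was at log2 -0.12 (95% interval -0.45 to 0.21), Cdh2 at -0.29 (-0.74 to 0.16) and Cdh10 at -0.02 (-0.61 to 0.56), with adjusted p of 0.946, 0.863 and 0.998. Cdh3 had an estimate of 0.69 (95% interval -0.16 to 1.54, adjusted p = 0.784) that rested on 1 library. Notch3-/- replicate 8, which was choroid plexus-rich, had 47.4 CPM while the other 7 ran from 5.38 to 8.54 CPM, and without it the estimate was -0.05. For Cdh10, without Notch3+/+ replicate 3 the estimate was 0.24. With single mice left out, the Cdh2 estimate ran from -0.37 to -0.13. The value of -0.13 was that without Notch3+/+ replicate 5, the library with 8928 CPM of pituitary markers.

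In TgNotch3R169C against non-Tg arteries 1 of the 9 members was called, Cdh13, where 0.113% of the 17731 genes tested were called, 0.102% higher and 0.0113% lower. The choice of genes had again used the contrast. Ranges lay apart for Cdh13 alone of the 9, where they did for 0.141% of genes tested, 0.130% higher and 0.0113% lower. Cdh11 came next by p. It ran from 72.3 to 128.8 CPM (median 88.9 CPM) in non-Tg and from 94.9 to 210.0 CPM (median 112 CPM) in TgNotch3R169C arteries, an estimate of log2 0.42 (95% interval 0.10 to 0.75) whose unadjusted p of 0.0140 became 0.611 after adjustment. TgNotch3R169C replicate 7 was the mouse at 210.0 CPM, and without it the estimate was 0.27.

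The estimates of Cdh5 and Cdh1 in TgNotch3R169C arteries lay close to 0. Cdh5 was at log2 0.03 (95% interval -0.09 to 0.16) and Cdh1 at -0.00 (-0.18 to 0.18). Cdh2 was at 0.36 (-0.17 to 0.89), Cdh4 at 0.46 (-0.09 to 1.002) and Cdh10 at 0.34 (-0.13 to 0.82), with adjusted p between 0.726 and 0.765. Without replicate 5 the estimate of Cdh4 was 0.15, and without replicate 6 that of Cdh2 was 0.16. All 8 neuron markers had positive estimates in the same comparison, with a median of log2 0.27 and none called, and their summed level was 203 to 702 CPM in non-Tg and 329 to 985 CPM in TgNotch3R169C libraries. With the neuron list as a covariate the estimate of Cdh10 was -0.02. Cdh3 was at log2 -0.43 (-1.24 to 0.38, adjusted p = 0.808), and without the choroid plexus-rich libraries at 0.00.

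No member was called in the test of the difference between the mutants' changes, where 0.350% of the 18555 genes tested were called by edgeR's quasi-likelihood test, 0.264% higher and 0.0862% lower. Cdh11 had an unadjusted p under 0.05 (log2 0.42, unadjusted p = 0.0378, adjusted p = 0.549). So did Cdh6, the 1 member that DESeq2 called, but the knockout contrast that chose it is part of this difference, so nothing is read from either. Cdh2 differed by 0.66 (95% interval -0.04 to 1.35), Cdh4 by 0.59 (-0.05 to 1.23), Cdh10 by 0.37 (-0.38 to 1.12) and Cdh3 by -1.12 (-2.30 to 0.07). For Cdh1 and Cdh5 the estimates were -0.02 (-0.29 to 0.26) and 0.02 (-0.14 to 0.18).

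Between the control groups 3 members besides Cdh6 had intervals that left out 0 without passing the adjusted threshold. Cdh3 was at 0.997 (95% interval 0.35 to 1.64, adjusted p = 0.0545), Cdh11 at -0.40 (-0.66 to -0.13, adjusted p = 0.0578) and Cdh5 at -0.16 (-0.27 to -0.05, adjusted p = 0.0628), and DESeq2 called all 3. Cdh3 ran from 5.94 to 11.0 CPM in Notch3+/+ and from 5.98 to 31.96 CPM in non-Tg arteries, with its 4 highest non-Tg mice, replicates 2, 4, 5 and 6, being the choroid plexus-rich ones. With the choroid plexus list as a covariate the Cdh3 estimate was -0.03. Without Notch3+/+ replicate 3 the estimate of Cdh10 was 0.22, and without Notch3+/+ replicate 5 that of Cdh2 was 0.06. Cdh1 was at -0.15 (-0.35 to 0.05), Cdh2 at -0.09 (-0.59 to 0.41), Cdh10 at -0.04 (-0.50 to 0.42) and Cdh4 at 0.03 (-0.31 to 0.38), all with adjusted p of at least 0.373.

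**Figure D3:**
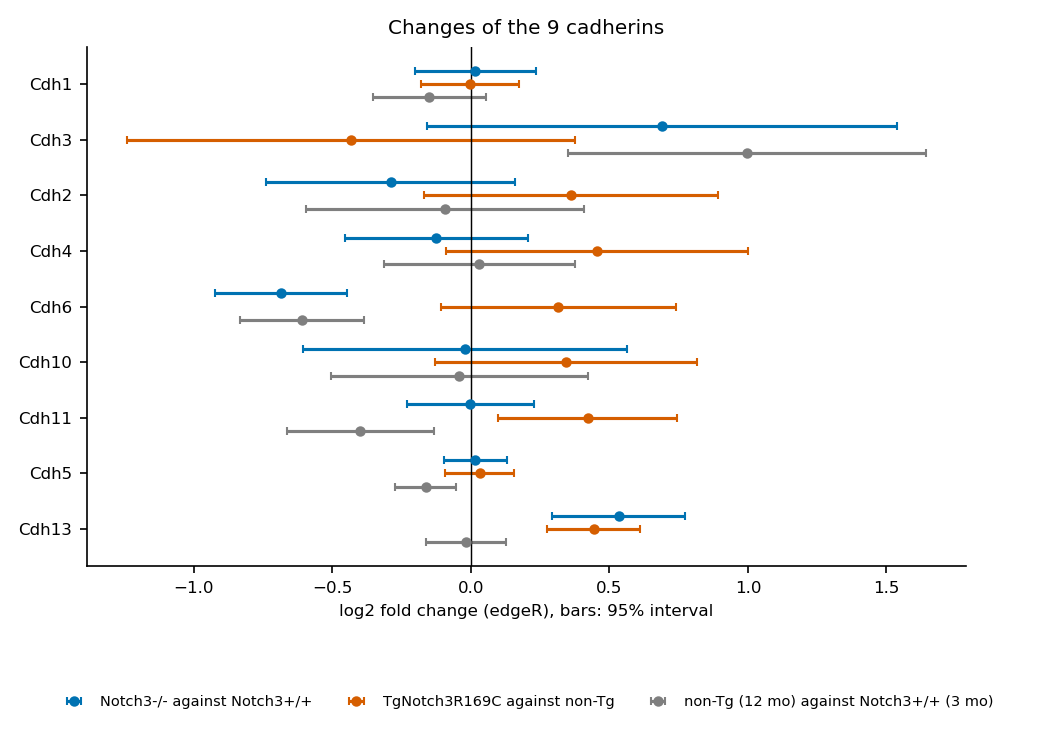
Log2 fold change of each cadherin with its 95% interval (edgeR) in 3 comparisons, marked by colour. Intervals of Cdh13 lie above 0 in both mutants and that of Cdh6 lies below 0 in the knockout and in the 12-month against 3-month controls.

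Partners of the cadherins were examined through 8 lists with 54 genes, of which 51 were tested in each comparison. In Notch3-/- arteries 1 of the 51 was called, lower, where 0.649% of all genes tested were called, 0.452% lower. This was Ctnna3 (alpha-T-catenin), an actin-linking catenin best known from the heart. It ran from 2.98 to 4.04 CPM in Notch3+/+ and from 1.67 to 2.90 CPM in Notch3-/- arteries (log2 -0.58, SE 0.12, adjusted p = 0.0309). Its ranges did not overlap, and 0.231% of all genes tested had ranges that lay apart and lower. The beta-catenin gene Ctnnb1 was at 0.02 (SE 0.05), the p120-catenin gene Ctnnd1 at -0.01 (SE 0.08) and the alpha-E-catenin gene Ctnna1 at -0.03 (SE 0.05). The median over the 51 genes was -0.04, against -0.00 over all genes tested.

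None of the 51 was called in TgNotch3R169C arteries, where 0.113% of all genes tested were called. The 3 smallest p belonged to Ptprj, a receptor phosphatase of junctions (log2 0.28, SE 0.09, adjusted p = 0.504), Vezt, a protein of adherens junctions (0.19, SE 0.06, adjusted p = 0.531) and Plekha7, which links p120-catenin to microtubules (-0.28, SE 0.12, adjusted p = 0.679). Adipoq, the gene of the Cdh13 ligand adiponectin, was at most 0.12 CPM in any library and was not tested, and the adiponectin receptor genes Adipor1 and Adipor2 lay between log2 -0.08 and 0.07 in every comparison of 2 groups. In the test of the difference between the mutants' changes none was called either, and the 3 smallest p belonged to the neuronal cadherin Cdh12 (1.45, SE 0.59, adjusted p = 0.465), the repressor Zeb1 (0.12, SE 0.05, adjusted p = 0.469) and Vezt (0.16, SE 0.08, adjusted p = 0.565).

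Between the control groups 6 of the 51 were called, 3 in each direction, a count near the background of 7.92% of all genes tested. Cdh19, a cadherin of Schwann cells, rose from 10.2 ± 3.0 CPM in Notch3+/+ to 19.6 ± 4.6 CPM in non-Tg arteries (SD, n = 8 each), log2 0.94 (SE 0.18, adjusted p = 0.00587). Plekha7 rose by log2 0.56 (SE 0.11, adjusted p = 0.00595). Cdh15 (M-cadherin), a muscle cadherin, rose by log2 2.38 (SE 0.52, adjusted p = 0.0123) from very few reads, with 4 to 31 counts per Notch3+/+ library and 8 to 183 per non-Tg library. Nectin3, an adhesion molecule that works beside cadherins, fell by 0.34 on the log2 scale (SE 0.05, adjusted p = 0.000727), the giant cadherin Fat4 fell by 0.39 (SE 0.09, adjusted p = 0.0134) and the actin linker Vcl (vinculin) fell by 0.39 (SE 0.09, adjusted p = 0.0179).

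The members differed in the marker lists they varied with among mice of the same group. Over the 32 libraries, after the group means had been removed, each member was set against 13 marker lists. Of all pairs of the 9 members and 13 lists, 27 had an adjusted permutation p under 0.05 (two-sided, permuted within groups), 18 positive and 9 negative. Of these, 2 of the 27, those of Cdh3 and Cdh5, involved the choroid plexus list, where the libraries formed separate clusters, and are described within the clusters. Libraries share depth and composition between genes, so a relation to a list places a gene beside those cells' RNA and does not locate its expression.

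Cdh10 had the closest relation to neurons. Its r with the neuron list (8 genes, Snap25 and Rbfox3 among them) was 0.86 (Spearman rho 0.86, adjusted permutation p = 0.000585 and 0.00078, the first from the smallest p that the permutations can give), 0.86 among 3-month and 0.85 among 12-month mice, and 0.82 without the 2 libraries farthest from the median. Cdh2 (r 0.60, rho 0.75), Cdh4 (0.57, 0.60) and Cdh6 (0.47, 0.43) were also positive against that list, with adjusted permutation p for r of 0.00741, 0.00533 and 0.0195, and without the 2 farthest libraries their r was 0.64, 0.60 and 0.47. For Cdh6 the adjusted permutation p of rho was 0.0704. Cdh2, Cdh4 and Cdh10 were negative against the arachnoid barrier list (4 genes), with r of -0.67, -0.56 and -0.61 (adjusted permutation p = 0.00307, 0.0201 and 0.00307). Cdh10 was also negative against the fibroblast list (r -0.60, rho -0.58, adjusted permutation p = 0.00928 and 0.0171). With the astrocyte list its r was 0.51 (rho 0.44, adjusted permutation p = 0.0201 and 0.0505).

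Cdh5 was positive against the lists of the vessel wall. Its r was 0.76 with the fibroblast, 0.69 with the macrophage, 0.66 with the endothelium, 0.61 with the pericyte and 0.53 with the smooth muscle list, with adjusted permutation p of 0.00078 to 0.0195. It was negative against the neuron list (r -0.51, adjusted permutation p = 0.0201) and the ependyma list (r -0.55, adjusted permutation p = 0.0151). By rho, its relations to the smooth muscle (0.37), neuron (-0.38) and ependyma (-0.42) lists did not pass, with adjusted permutation p of 0.13, 0.126 and 0.0772. For the endothelium list the r of Cdh5 was 0.59 among 3-month and 0.73 among 12-month mice. Cdh1 (r 0.64, rho 0.49) and Cdh11 (r 0.61, rho 0.49) were positive against the fibroblast list (9 genes, Col1a1 and Dcn among them). Both were negative against the astrocyte list (7 genes), with r of -0.56 and -0.48. For r, all had adjusted permutation p of 0.00307 to 0.0195. The rho of Cdh11 with the astrocyte list was -0.37 (adjusted permutation p = 0.13). Cdh11 was also positive against the pituitary list (r 0.44, rho 0.52, adjusted permutation p = 0.0484 and 0.0268). For Cdh6, the r with the astrocyte list was 0.37 (rho 0.47, adjusted permutation p = 0.042 and 0.0411) and 0.25 without the 2 farthest libraries.

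Cdh13 passed the threshold with 1 of the 13 lists, endothelium. The r was 0.50 (rho 0.44, adjusted permutation p = 0.0195 and 0.0704), 0.58 among 3-month and 0.45 among 12-month mice, and 0.54 without the 2 farthest libraries. Against the smooth muscle list Cdh13 had an r of 0.39 (rho 0.38, adjusted permutation p = 0.0937 and 0.128).

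**Figure D4:**
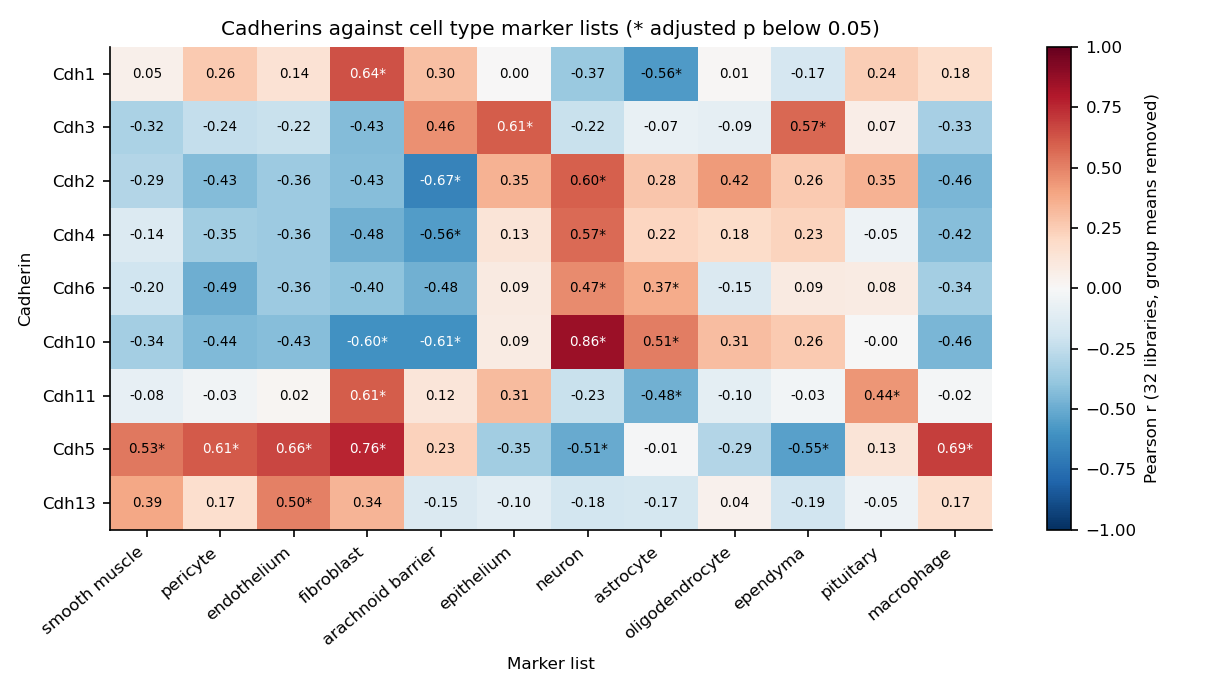
Pearson r of each cadherin (rows) with the mean log2 CPM of 12 cell type marker lists (columns) over 32 libraries after removal of group means, with a star where the adjusted permutation p is under 0.05. Cdh10 is at 0.86 with neurons, Cdh5 at 0.76 with fibroblasts and Cdh13 at 0.50 with endothelium; the choroid plexus list, in which libraries form clusters, is left out.

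Cdh3 followed the choroid plexus among the libraries rich in it. Here log2 CPM was used as it stood, with group means left in. Within the 7 rich libraries, which come from 3 groups and where the exact permutation test was used, r was 0.96 (rho 1, adjusted exact permutation p = 0.00714 for both, over 18 pairs), and 0.99 without the 2 farthest libraries. Within the other 25 libraries it was 0.08 (rho 0.07, adjusted permutation p = 0.806 and 0.794). No other member passed the threshold in either cluster, and Cdh5 had r of -0.68 and -0.42 within the clusters (adjusted permutation p = 0.441 and 0.221). Over all 32 libraries with group means removed, Cdh3 was also positive against the epithelium and ependyma lists. The r was 0.61 (rho 0.53, adjusted permutation p = 0.00538 and 0.0268) with epithelium and 0.57 (rho 0.44, adjusted permutation p = 0.013 and 0.0704) with ependyma.

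**Figure D5:**
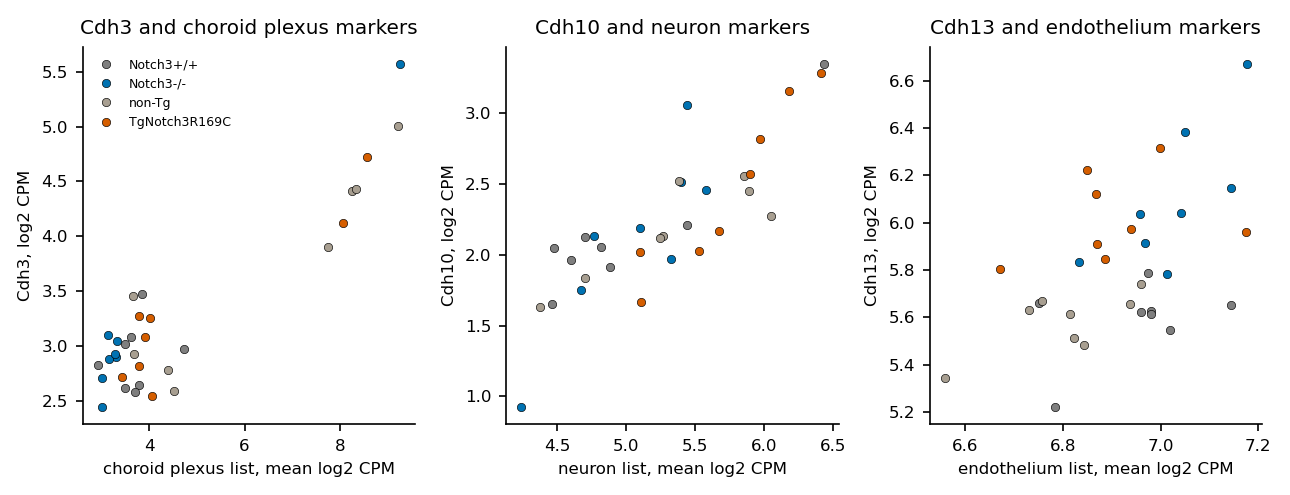
Log2 CPM of Cdh3, Cdh10 and Cdh13 (vertical) against the mean log2 CPM of the choroid plexus, neuron and endothelium lists (horizontal), 1 point per library, coloured by group, with group means left in. The 7 libraries to the right in the first panel are the choroid plexus-rich ones, within which Cdh3 follows the list with an r of 0.96.

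The members also varied with each other, given here as a description without a test. Over the 32 libraries with group means removed, the highest r were 0.76 for Cdh4 with Cdh6, 0.69 for Cdh2 with Cdh10, 0.67 for Cdh4 with Cdh10, 0.62 for Cdh1 with Cdh11 and 0.61 for Cdh6 with Cdh10. TgNotch3R169C replicate 5 stood far above its group for both Cdh4 (34.9 CPM, next 16.9 CPM) and Cdh6 (32.1 CPM, next 16.99 CPM). An r of this pair without that library is not given. On the annotation used, 5 of the 9 genes, Cdh1, Cdh3, Cdh5, Cdh11 and Cdh13, lie on chromosome 8, and Cdh13 had an r of at most 0.37 in either direction with any other member.

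Among 14185 genes with a mean log2 CPM of at least 1, the 3 with the highest r were Ltbp4 (0.79), Sema3g (0.77) and Entpd2 (0.75) for Cdh13, and Adgrb1 (0.87), Nrsn1 (0.87) and Nxph1 (0.86) for Cdh6. Adgrb1 also led for Cdh4 (0.88), followed by Src and Sema3e. For Cdh5 they were Olfml2a (0.87), Ephb4 and Adgra2, for Cdh11 Sh3pxd2a (0.79), Bace2 and Mmp14, and for Cdh1 Slc47a1 (0.83), Htra3 and Col6a1. For Cdh2 they were Sgsm1 (0.93), Mfsd6 and Ptprn, and for Cdh10 Rapgefl1 (0.94), Cacng8 and Myt1l. Those of Cdh3 were Cd59a, Cab39l and Abca4, without an r because the libraries form clusters for that gene. Slc47a1 is in the arachnoid barrier list, with which Cdh1 itself had an r of 0.30 (rho 0.31, adjusted permutation p = 0.202 and 0.215).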

How the data were processed

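Poly(A)-selected stranded libraries were made from brain artery RNA of 32 mice, 8 per group, and the groups were taken from the sample labels. The values are raw counts of reads per Ensembl gene as deposited by the authors. The submitters' processing notes name bcl2fastq 2.20.0.422, cutadapt 1.10, Bowtie2 2.2.8, STAR 2.5.3a, HTSeq 0.6.1p1 and the genome build mm39, without saying what each was used for. Of 55357 genes, 52081 were matched to a symbol in GENCODE M21, which also gave chromosomes and exon lengths but is of another build, so gene coordinates were not taken from it. Lengths are unions of annotated exons, so levels per kb are approximate.

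Each comparison was tested across all genes with edgeR 4.0.16 (R 4.3.3; TMM, filterByExpr, quasi-likelihood F-test, Benjamini-Hochberg adjustment over all genes tested, threshold 0.05), on the 16 libraries of its 2 groups, and the difference between the mutants' changes on all 32. Intervals are 95%. Log2 CPM used a prior count of 2, and correlations 100000 permutations. The members, gene lists and tests were chosen with earlier results of these data known. No p is printed for differences of Cdh13 and Cdh6 between groups, since every comparison shares libraries with the contrasts that chose them. Where these genes are said to be called or not, this is a description. Every member was named in every comparison, and of the partner lists the genes called, or else the 3 with the smallest p. On simulated counts with 200 changed genes the fit recovered 64% of them in the knockout comparison, 70% in the transgenic and in the control comparison and 52% in the test of the difference, with 3.0% to 5.4% false calls. No 2 libraries of a group were alike within sampling noise (chi-square per gene 10.9 to 147.9 over 112 pairs). The labels number the replicates of a group, and the study's text gives 8 mice per genotype, so each sample was taken as 1 mouse and p-values measure the spread between these samples. Alternatives were other size factors, filters and tools (DESeq2 1.42.0, limma 3.58.1), covariates, a replicate block and leaving out mice.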

Additional observations from a re-analysis of the deposited data

Results flagged for a closer look

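In 9 of the 36 combinations of a member and a group, 1 mouse stood apart from the other 7, by a gap to its neighbour that, as a share of the group's whole range, exceeded Dixon's 95% critical value. For normally distributed values, chance would flag about 1.8 of 36. The values here are CPM on a linear scale and some mice are flagged for several genes, so the excess over 1.8 was not tested. The largest gap was that of Cdh3 in Notch3-/- replicate 8, 0.925 of the range, a choroid plexus-rich library. TgNotch3R169C replicate 5, also choroid plexus-rich, was highest for Cdh4 (34.9 CPM, next 16.9 CPM, gap 0.674) and Cdh6 (32.1 CPM, gap 0.65) and lowest for Cdh5 (239 CPM, next 282.5 CPM, gap 0.562). Cdh11 had a high mouse in both mutants, Notch3-/- replicate 2 (159.9 CPM, gap 0.666) and TgNotch3R169C replicate 7 (gap 0.705). Notch3+/+ replicate 3 was highest for Cdh10 (10.1 CPM, next 4.58 CPM, gap 0.787) and lowest for Cdh13 (37.2 CPM, next 46.7 CPM, gap 0.528). Cdh2 was highest in non-Tg replicate 8 (31.4 CPM, gap 0.529).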

How the results depend on the processing

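Of the members' estimates, 432 were recomputed under another setting, of which 365 kept their direction and side of the threshold, 48 changed sign, 14 were no longer called and 5 became called. In the knockout comparison 1 member was called with a replicate block, with the endothelium list or Xist as a covariate and without the choroid plexus-rich libraries, in each case Cdh6, and 0 with the smooth muscle list. In the transgenic comparison 0 were called with all 4 groups in 1 fit, with the block, with the endothelium or neuron list and without the choroid plexus-rich libraries. Between the control groups 4 were called by DESeq2, 2 with the neuron list (Cdh3 and Cdh6), and 0 with the smooth muscle or choroid plexus list or without the choroid plexus-rich libraries. The difference between the mutants' changes gave 1 call, Cdh6, by DESeq2 and without TgNotch3R169C replicate 5, for a gene chosen by its knockout contrast, which is part of that difference, and 0 with the replicate block and without the choroid plexus-rich libraries. Leaving out 1 mouse gave 1 to 2 calls in the knockout, 0 to 1 in the transgenic and 1 to 3 in the control comparison. The cause of these losses was not tested, and leaving out libraries also leaves fewer samples. Deviations of same-numbered mice correlated at -0.14 to 0.34 and -0.25 to 0.42, over 0.1 in 4 of 8 pairs each, and 3 and 1 of 8 mice matched their own number best, so the numbers were not read as pairing the mice. Correlations passing the threshold numbered 27, and 31 with RLE size factors, 27 with a prior count of 0.5, 21 by Spearman's rho and 27 without each list's most abundant gene, and none changed sign.

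None of the sign changes was called after it. In the knockout comparison Cdh11 became 0.0015 with RLE size factors, 0.0098 without a filter, 0.0041 with at least 10 counts, 0.0016 by DESeq2, 0.010 by limma voom and 0.011 with the block, and 0.038, 0.050, 0.016 and 0.00051 with the endothelium, fibroblast, neuron and choroid plexus lists. Cdh3 became -0.051 by DESeq2, Cdh1 -0.13 with the smooth muscle list, and Cdh5 -0.019 and Cdh10 0.18 with the endothelium list. In the transgenic comparison Cdh1 became 0.0035 with RLE size factors, 0.0032 with at least 10 counts, 0.0031 by DESeq2, and 0.10 and 0.048 with the smooth muscle and neuron lists. Cdh6 became -0.018 with the smooth muscle list, Cdh10 -0.021 with the neuron list, Cdh3 0.018 and 0.029 and Cdh5 -0.039 and -0.012 with the endothelium and choroid plexus lists. Between the control groups Cdh13 became 0.12, 0.070, 0.19, 0.010 and 0.085 with the smooth muscle, endothelium, fibroblast, neuron and choroid plexus lists, Cdh4 -0.13 and -0.062 with the fibroblast and neuron lists, Cdh1 0.15 and Cdh5 0.0064 with the fibroblast list, Cdh10 0.021 by limma voom, and Cdh2 0.089, Cdh3 -0.027 and Cdh10 0.096 with the choroid plexus list. Without the choroid plexus-rich libraries Cdh3 became -0.051 and Cdh11 0.025 in the knockout comparison, Cdh1 0.017, Cdh3 0.0028 and Cdh4 -0.035 in the transgenic one, Cdh2 0.15, Cdh10 0.092 and Cdh13 0.068 between the control groups, and Cdh3 0.054 and Cdh5 -0.0034 in the difference.

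Leaving out 1 mouse, the estimates that crossed 0 ran, in the knockout comparison, from -0.027 to 0.084 for Cdh1, -0.051 to 0.81 for Cdh3, -0.0090 to 0.050 for Cdh5, -0.19 to 0.24 for Cdh10 and -0.058 to 0.069 for Cdh11. Cdh1 ran from -0.028 to 0.063 in the transgenic comparison and was 0.042 in the difference without TgNotch3R169C replicate 5. Between the control groups they ran from -0.26 to 0.059 for Cdh2, -0.042 to 0.11 for Cdh4, -0.11 to 0.22 for Cdh10 and -0.063 to 0.018 for Cdh13. Cdh10 had the fewest counts of the members, 58 to 375 per library.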
